A study of Bos taurus with 6 samples.

Results

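The genes described here are 10 genes of leukotriene and prostaglandin synthesis, ALOX5, ALOX5AP, LTA4H, LTC4S, ALOX15, PTGS1, PTGS2, PTGES, PTGDS and PTGIS. They were chosen by gene symbol from the 25444 genes of an mRNA count table, and all 10 were found in it. The table compares intramuscular fat (IMF) of steers and bulls of the Chinese Qinchuan breed. All animals were weaned at 3 months and slaughtered at 24 months, and the steers had been surgically castrated at 6 months. They had been sired by 1 bull. The IMF was dissected from the sternomandibularis, a neck muscle. RNA of the animals of a group was pooled into 1 mRNA library, from 6 animals per group according to the series' design text and 3 according to the sample labels. No replicate therefore stands behind any value, and every comparison below is between these 2 pooled libraries and not between the conditions.

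Leukotrienes and prostaglandins are short-lived lipid signals made from arachidonic acid, a fatty acid that phospholipases release from membranes. In the leukotriene branch, ALOX5 (5-lipoxygenase) works with its membrane partner ALOX5AP to make leukotriene A4. LTA4H turns this into leukotriene B4, which attracts leukocytes, and LTC4S couples it to glutathione to give leukotriene C4. In the prostaglandin branch, the cyclooxygenases PTGS1 and PTGS2 make prostaglandin H2, from which terminal synthases form prostaglandin E2 (PTGES), prostaglandin D2 (PTGDS) and prostacyclin (PTGIS). Leukotriene synthesis is a trait of myeloid and mast cells, and prostacyclin is best known from vessel walls.

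The libraries held 12677375 counts in steers and 9868415 in bulls. To make them comparable, each count was divided by a size factor (1.04 for steers and 0.959 for bulls), which gives the scaled counts used below. The 2 counts of a gene were set against each other in an exact two-sided binomial test, and p-values were adjusted by the Benjamini-Hochberg method over 17752 genes, those counted at least once. Calls needed an adjusted p under 0.05 together with a log2 fold change beyond 1 in either direction. Intervals are 95% Clopper-Pearson intervals for fold changes and 95% Poisson intervals for counts, and cover counting error only. Counts of different genes were not compared as levels, because transcript lengths were not used here. Adipocyte genes were abundant in both libraries. TUSC5 had 11988 counts in steers and 9197 in bulls, CIDEC 9931 and 7501, and FABP4 3951 and 7574. Skeletal muscle genes were present as well, with 13852 and 19910 counts of ACTA1.

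Of the 10 genes, ALOX5, ALOX5AP and PTGS2 were called downregulated in steers and 0 were called upregulated. Over all genes tested, 8.13% were called downregulated and 4.37% upregulated. PTGDS, LTA4H and PTGIS had intervals wholly above 0 without reaching the fold threshold, LTC4S had one wholly below 0, and those of PTGS1 and PTGES included 0. Scaling by total counts lowers every log2 fold change by the same amount, and with it PTGS1 (-0.49, adjusted p = 0.00108), PTGES (-0.33, adjusted p = 0.0131) and PTGIS (-0.13, adjusted p = 7.2e-06) were below 0 in the exact binomial test, short of the fold threshold. The median log2 fold change of the 9 genes with counts in both libraries was -0.25, beside 0.01 over all genes tested. All 9 had at least 50 counts over both libraries, and among genes of that depth 8.22% were called downregulated and 3.88% upregulated.

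**Figure D1:**
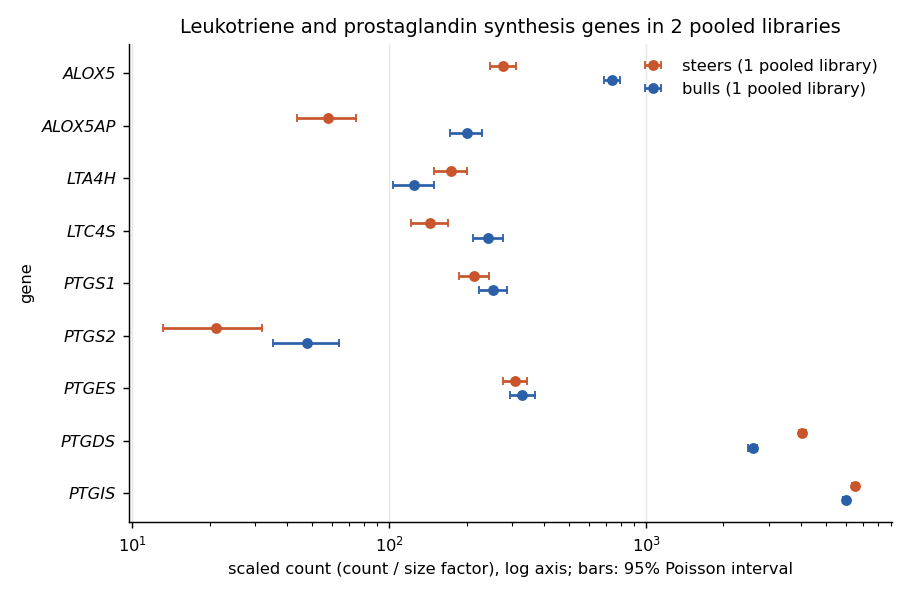
Scaled counts (log axis) of the 9 genes with counts in both libraries, orange for the pooled library of steers and blue for that of bulls, with 95% Poisson intervals. ALOX5, ALOX5AP, LTC4S and PTGS2 sit lower in steers with intervals apart from those of bulls, PTGDS and PTGIS sit higher, and ALOX15, with 0 and 2 counts, is not drawn.

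ALOX5, the enzyme that commits arachidonic acid to leukotrienes, had 289 counts in steers and 707 in bulls. The scaled counts were 277 (interval 246 to 311) and 738 (684 to 794), so that the library of steers was 2.66-fold lower, with a log2 fold change of -1.41 (-1.62 to -1.21) and an adjusted p of 1.2e-47 in the exact binomial test. Of all genes tested, 12.3% had a lower log2 fold change. ALOX5AP, which presents arachidonic acid to ALOX5 at the nuclear membrane, had 60 counts in steers and 192 in bulls. Its scaled counts of 57.5 (43.9 to 74.0) and 200 (173 to 231) gave the largest fall of the 9 genes, a log2 fold change of -1.80 (-2.24 to -1.38) with an adjusted p of 1.2e-18. The 2 partners thus both fell, and the count ratio of ALOX5 to ALOX5AP, 4.82 in steers and 3.68 in bulls, did not differ beyond counting error (ratio of ratios 1.31, interval 0.941 to 1.84).

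The enzymes that act on leukotriene A4 had opposite signs. LTA4H, which makes leukotriene B4, had 181 counts in steers and 120 in bulls, scaled counts of 173 (149 to 201) and 125 (104 to 150). Its log2 fold change of 0.47 (0.13 to 0.82) was above 0 with an adjusted p of 0.018, but was not called, being under the fold threshold. With total counts it was 0.23 with an adjusted p of 0.326 in the same exact test. LTC4S, the synthase of leukotriene C4, had 150 counts in steers against 233 in bulls, which scaled to 144 (122 to 169) and 243 (213 to 276). Its log2 fold change was -0.76 (-1.06 to -0.46) with an adjusted p of 3.0e-06, also short of the fold threshold, although the interval reached past it. Taken as a sum, the 4 leukotriene genes reached scaled counts of 652 in steers and 1306 in bulls, and ALOX5 supplied more of the reads than any other of them in both libraries.

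ALOX15, a lipoxygenase that acts at another carbon of arachidonic acid, had 0 counts in steers and 2 in bulls. Both counts are under the floor of 3 counts, so no fold is given, and its transcripts were not detectable at this depth in steers. ALOX12, a close relative, had 2 and 5 counts, and reads shared between the 2 genes could be split by the counting.

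For the cyclooxygenases, PTGS2 was lower in steers and PTGS1 was not called. PTGS2, the inducible enzyme of inflammation, was scarce in both libraries, with 22 counts in steers and 46 in bulls. The scaled counts were 21.1 (13.2 to 31.9) and 48.0 (35.1 to 64.0), and the log2 fold change of -1.19 (-1.99 to -0.42) had an adjusted p of 0.0054. PTGS1, the constitutive enzyme, had 223 and 244 counts, which scaled to 214 (187 to 244) and 255 (224 to 289). Its log2 fold change was -0.25 (-0.52 to 0.02, adjusted p = 0.14), an interval that excludes a 2-fold difference between these libraries. From bulls to steers the ratio of PTGS1 to PTGS2 went from 5.30 to 10.1, a change of 1.91-fold with an interval of 1.09 to 3.44.

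None of the 3 terminal prostanoid synthases was called. PTGDS, the lipocalin-type prostaglandin D synthase, had 4237 counts in steers and 2492 in bulls. It was 1.56-fold higher in steers, with scaled counts of 4061 (3940 to 4186) and 2600 (2499 to 2704) and a log2 fold change of 0.64 (0.57 to 0.72, adjusted p = 2.9e-70). With total counts the log2 fold change of PTGDS was 0.40. PTGIS, the prostacyclin synthase, was at 6792 counts in steers against 5767 in bulls. The log2 fold change of PTGIS was 0.11 (0.06 to 0.16, adjusted p = 5.5e-05). This sign depended on the scaling, and with total counts in place of the size factors the log2 fold change of PTGIS was -0.13. PTGES, the inducible prostaglandin E synthase, had 323 and 316 counts, and its log2 fold change was -0.09 (-0.32 to 0.14, adjusted p = 0.65). PTGIS and PTGDS together supplied most reads of the 10 genes in both libraries. PTGDS made up 34.5% (33.7 to 35.4, Clopper-Pearson) of them in steers and 24.6% (23.8 to 25.5) in bulls, while PTGIS made up 55.3% (54.4 to 56.2) and 57.0% (56.0 to 58.0). The share of ALOX5 was 2.35% (2.09 to 2.64) in steers and 6.99% (6.50 to 7.50) in bulls.

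**Figure D2:**
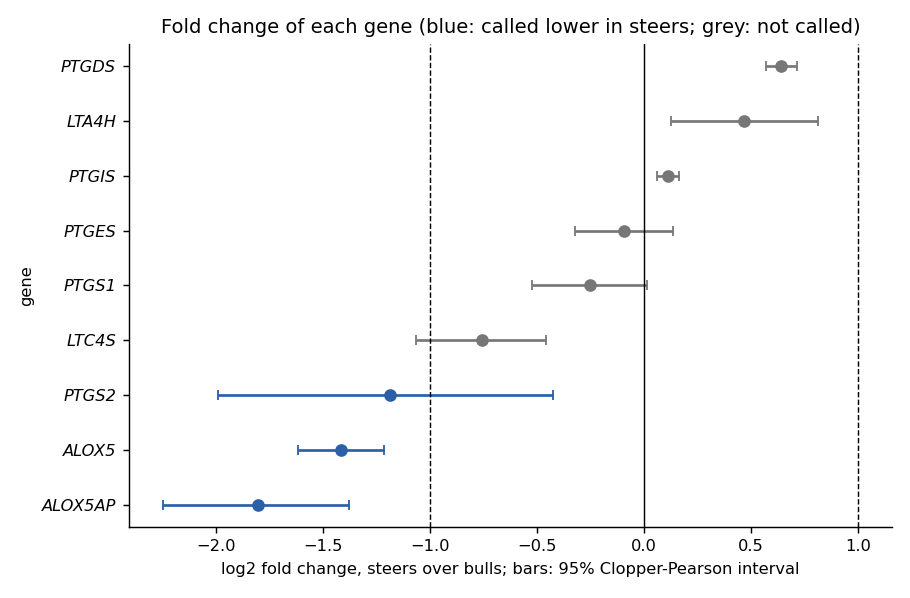
Log2 fold change of steers over bulls for the same 9 genes, ordered by value, with 95% Clopper-Pearson intervals and dashed lines at the fold threshold. ALOX5AP, ALOX5 and PTGS2, in blue, were called lower in steers, and the values run from -1.80 for ALOX5AP to 0.64 for PTGDS.

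The calls rest on counting error alone, since the spread between animals was pooled away. When the pools were assumed to vary with a biological coefficient of variation of 0.2 (edgeR exact test), ALOX5 (adjusted p = 0.0213) and ALOX5AP (adjusted p = 0.00387) were still called and PTGS2 was not (adjusted p = 0.304). Among all 17752 genes tested, 368 were called upregulated and 762 downregulated with 0.2 assumed. With 0.4 assumed, 0 of the 10 genes were called, and 52 upregulated and 93 downregulated among the 17752.

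A ratio between 2 genes of the same library does not depend on the scaling. Of the 36 pairs among the 9 genes, 29 had a ratio that differed between the libraries beyond its 95% interval. The widest contrast was between ALOX5AP and PTGDS, whose ratio was 5.44-fold higher in bulls (4.03 to 7.43). ALOX5AP against LTA4H, both in the leukotriene branch, went from 1.60 in bulls to 0.331 in steers, a 4.83-fold difference (3.28 to 7.12). For ALOX5 against LTA4H the ratio was 5.89 in bulls and 1.60 in steers, 3.69-fold apart (2.80 to 4.87). Ordered by fold change, ALOX5AP, ALOX5 and PTGS2 could not be told apart from each other, nor could PTGS2 from LTC4S, PTGES from PTGS1 or PTGIS, or LTA4H from PTGDS. The 36 pairs share genes and are not independent, and pairs of other genes were not counted. The 29 is therefore not a trait of this family. The ratios were computed after the counts had been seen, and carry no test.

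**Figure D3:**
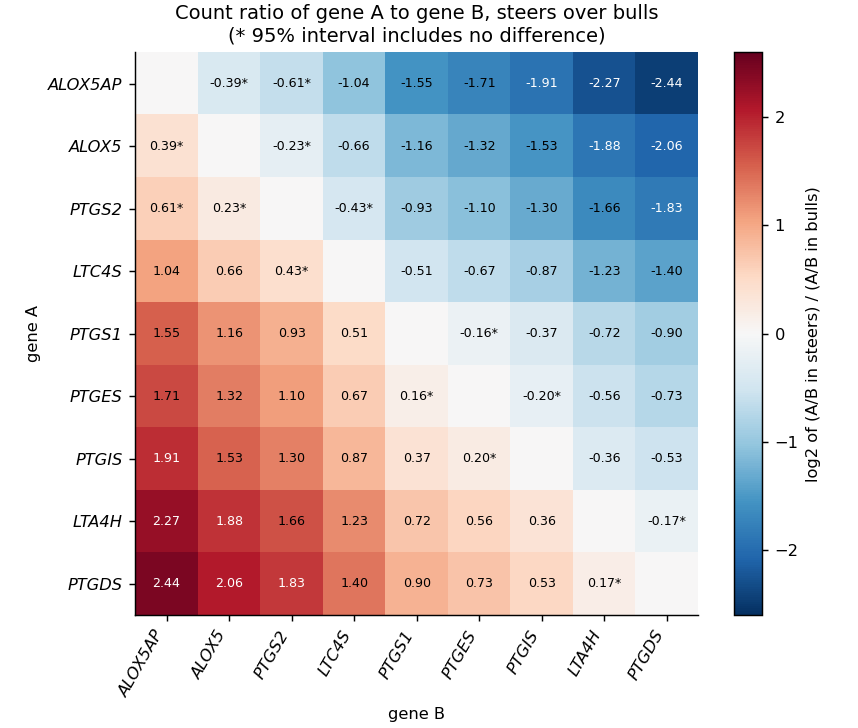
Each cell gives the log2 of the count ratio of gene A to gene B in steers divided by the same ratio in bulls, red where gene A stood higher relative to gene B in steers and blue where it stood lower. The 7 pairs with a star have an interval that includes no difference, and the values reach -2.44 for ALOX5AP against PTGDS.

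The other genes of the route were taken from a list of 60 genes of arachidonate release, further synthases, conversion, breakdown and transport, and receptors. Of these, 57 were in the table and 51 had a count. In steers 7 were called downregulated and 4 upregulated, and 40 were not called. Their median log2 fold change was -0.14. These shares are read beside the 8.13% and 4.37% called over all genes.

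Among the genes that feed the route, 1 of 14 with a count was called. PLA2G2D1, a secreted phospholipase A2, fell by 1.02 on the log2 scale (interval -1.37 to -0.69), with 113 counts in steers and 211 in bulls. It lay close to the threshold and was not called with a prior of 5 counts. PLA2G4A, the cytosolic phospholipase A2 that releases arachidonic acid in many cells, had 1 count in steers and 0 in bulls. PLA2G16, a phospholipase of adipocytes named after its values were seen, was at -0.52 (-0.63 to -0.40) on that scale, not called, with 1102 and 1449 counts.

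Of 7 further terminal prostanoid synthases, TBXAS1 and HPGDS were called downregulated in steers. TBXAS1, the thromboxane synthase of platelets and macrophages, had 19 counts in steers and 100 in bulls. It was 5.73-fold lower in steers, a log2 fold change of -2.52 (-3.31 to -1.80, adjusted p = 6.3e-15 in the exact binomial test). HPGDS, the prostaglandin D synthase of blood-derived cells, had 10 and 23 counts. Its log2 fold change of -1.32 (-2.56 to -0.20), with an adjusted p of 0.049, lay at the edge of the call, which was lost with upper-quartile scaling. PTGDS, which makes the same prostaglandin, thus had the opposite sign. PTGES3 (log2 fold change 0.47, 0.28 to 0.66), PTGES2 (0.18, -0.18 to 0.55) and AKR1B1 (0.22, -0.12 to 0.56), which have been assigned prostaglandin E or F synthase activity, were not called.

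Downstream of LTC4S, GGT5, which converts leukotriene C4 to leukotriene D4, fell by 1.87 on the log2 scale (interval -2.74 to -1.07), from 57 counts in bulls to 17 in steers. Genes of breakdown and transport held 3 of the 4 rises. CYP4F3, in humans the hydroxylase that inactivates leukotriene B4, rose by 3.02 on the log2 scale (2.12 to 4.07), from 11 counts in bulls to 97 in steers. CYP4F2, a close relative whose reads may be split with it, had 8 counts in steers and 0 in bulls. With 3 counts taken as the floor for bulls, that is at least 2.45-fold higher in steers, counting error aside. The interval of its log2 fold change began at 0.65. ABCC4, an exporter of prostaglandins, rose by 1.18 (0.64 to 1.74), with 101 counts in steers and 41 in bulls, but was not called with total counts. HPGD, the dehydrogenase that inactivates prostaglandins, was at -0.01 (-0.33 to 0.31), with 173 and 160 counts.

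Receptor genes had 1 rise and 3 falls. PTGER4, a prostaglandin E2 receptor, fell by 1.02 on the log2 scale (-1.21 to -0.83), with 358 counts in steers and 667 in bulls. PTGER1, another receptor of prostaglandin E2, had 1 and 13 counts, a ratio of 14.1 of bulls over steers with a counting interval of 2.13 to 601. LTB4R, the high-affinity receptor of leukotriene B4, fell by 1.79 (-3.40 to -0.40), with 6 and 19 counts. TBXA2R, the thromboxane receptor, went the other way and rose by 1.13 (0.37 to 1.94), with 50 and 21 counts, and was not called with total counts or with a prior of 5 counts. Of these 11 calls outside the 10 synthesis genes, those of TBXAS1, GGT5 and CYP4F3 held with an assumed biological coefficient of variation of 0.2, and 0 held with 0.4.

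**Figure D4:**
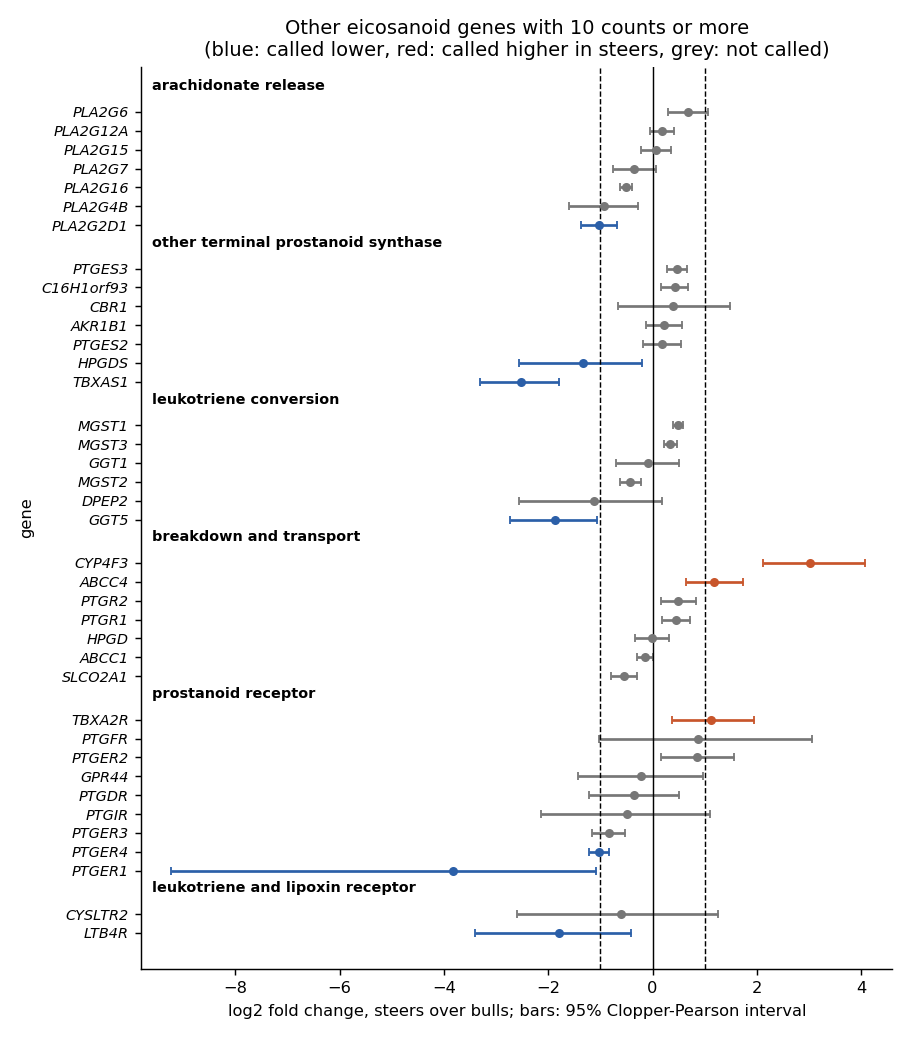
Log2 fold change of steers over bulls for the listed eicosanoid genes with counts in both libraries and at least 10 counts over both, grouped by role, with 95% Clopper-Pearson intervals. The 7 genes in blue, TBXAS1 and GGT5 among them, were called lower in steers and CYP4F3, ABCC4 and TBXA2R, in red, higher, and most others lie in grey between the dashed lines at the fold threshold.

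Markers of several cell types also differed between the 2 libraries. In bulk tissue, fewer cells of a type and less RNA per cell cannot be told apart. All 12 macrophage genes with a count were lower in steers and 10 were called downregulated, with summed scaled counts of 20105 in steers and 46805 in bulls. CSF1R, the most counted of them, had 7057 and 12309 counts. The log2 fold change was -0.92 for CSF1R, -0.64 for CD163 and -1.34 for C1QA, the smallest falls of the list. The macrophage list had a median of -1.75 and reached -4.38 for LYZ. Of 7 mast cell genes, 5 were called downregulated, and the summed scaled counts were 538 in steers and 1115 in bulls. TPSB1 had 173 and 364 counts, KIT 145 and 284, and CPA3 108 and 254. FCER1A went the other way, with 79 and 56 counts (log2 fold change 0.37), and like MS4A2 (15 and 25 counts) was not called. T lymphocyte genes, 9 of 10 called downregulated, summed to scaled counts of 174 and 1028, and B lymphocyte genes, 2 of 6 called, to 26.8 and 171. The part of these cells in the falls of ALOX5, ALOX5AP, PTGS2, TBXAS1 and HPGDS was not tested.

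Set against the summed macrophage list, ALOX5 had 13.8 counts per 1000 list counts in steers and 15.8 in bulls, a ratio of 0.874 with an interval of 0.759 to 1.01. Against the mast cell list the ratio of ALOX5 was 0.779 (0.654 to 0.927) and that of ALOX5AP 0.595 (0.430 to 0.815). Against the macrophage list ALOX5AP had 2.86 and 4.28 counts per 1000 (ratio 0.668, interval 0.491 to 0.898), and TBXAS1 0.906 and 2.23 (0.406, 0.235 to 0.669). PTGS2 had 1.05 and 1.03 counts per 1000 (ratio 1.02, interval 0.586 to 1.74). LTC4S per 1000 counts of the mast cell list was 267 in steers and 218 in bulls (1.23, 0.968 to 1.55), and HPGDS 17.8 and 21.5 (0.828, 0.349 to 1.83). Per macrophage list count the ratio of LTC4S was 1.38 (1.11 to 1.70) and that of HPGDS 0.930 (0.395 to 2.03). LTA4H and PTGDS stood 3.23-fold (2.55 to 4.10) and 3.64-fold (3.45 to 3.83) higher per macrophage list count in steers. PTGIS (2.52, 2.42 to 2.62), PTGES (2.19, 1.86 to 2.56) and PTGS1 (1.95, 1.62 to 2.36) stood higher as well. Because the list itself was lower in steers, a gene with unchanged scaled counts also rises in such a quotient. These quotients describe the 2 libraries, were chosen after the counts had been seen, and depend on the few genes that dominate each list. The log2 ratio of the summed macrophage list was -1.22, while the median of its genes was -1.75. ALOX5AP, at -1.80, lay near that median and ALOX5, at -1.41, above it. How far a quotient lies from 1 therefore depends on this weighting.

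The platelet, neutrophil, eosinophil, epithelial and erythroid lists gave few counts beside the macrophage list. Of 5 platelet genes in the table, ITGA2B had 40 counts in steers and 66 in bulls, PF4 had 1 and 0, and PPBP, GP9 and GP1BA had 0 in both. In the neutrophil list, CXCR2 had 0 and 3 counts, CSF3R 6 and 13 and S100A12 20 and 30. S100A9 (149 and 29 counts) and S100A8 (95 and 8) were called upregulated in steers. The neutrophil list had 4 genes above 0 and 3 below, and summed to scaled counts of 268 in steers and 93.9 in bulls. Eosinophil genes were nearly silent, the list holding 8 counts in steers and 10 in bulls. KRT8, KRT18 and KRT19 of the epithelial list were called upregulated in steers, KRT8 with 148 and 7 counts, and the epithelial list had 4 of 6 genes called upregulated and summed scaled counts of 334 and 56.3. HBB of the erythroid list had 21 and 1 counts, and that list summed to scaled counts of 38.3 and 8.35.

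Among tissue cell lists, 0 of 11 endothelial and 0 of 6 smooth muscle genes were called by the exact binomial test. The endothelial genes had a median log2 fold change of -0.19, with 8 of 11 below 0, and summed to scaled counts of 10515 in steers and 10961 in bulls, with VWF at a log2 fold change of -0.19 and PECAM1 at 0.16, beside 0.11 for PTGIS. Smooth muscle genes had a median of -0.51 and summed to 9797 and 11295. Of these 6 genes, 5 were below 0, ACTA2 at -0.66 among them, and TAGLN was at 0.45. Fibroblast genes had a median of 0.54, with 9 of 10 above 0. Of them 2 were called upregulated, COL3A1 at 1.27 and COL1A1, at the edge of the threshold, at 1.00. DCN was at 0.04 and PDGFRA, the 1 below 0, at -0.48, while PTGDS was at 0.64. Adipocyte genes had a median of -0.02, with 4 above 0 and 5 below. Of them 1 was called in each direction, CIDEA at 2.75 and FABP4 at -1.06. Skeletal muscle genes had a median of -0.62 with 1 upregulated and 2 downregulated. Whether these cells had a part in the values of PTGDS and PTGIS was not tested.

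**Figure D5:**
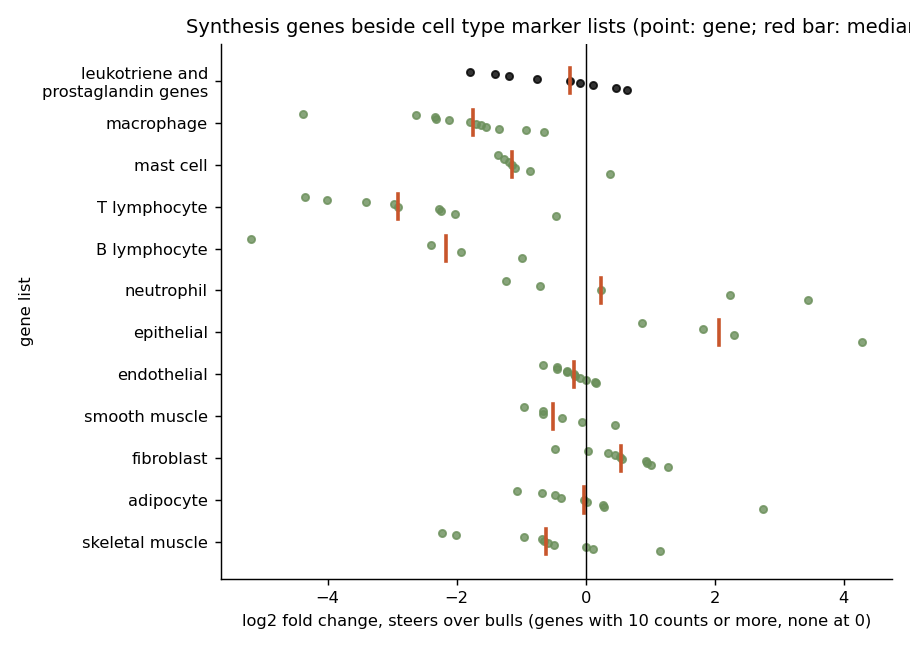
Log2 fold change of steers over bulls for the 9 synthesis genes (black) and for genes of 11 cell type lists (green), limited to genes with counts in both libraries and at least 10 over both, with the median of each row as a red bar. The macrophage, mast cell and lymphocyte rows lie mostly below 0 and the fibroblast and epithelial rows mostly above it, while the synthesis genes spread from -1.80 to 0.64.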

How the data were processed

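The mRNA data consist of 1 pooled IMF library of steers and 1 of bulls, assigned to groups by their titles. The authors removed adaptors and low-quality reads and aligned the Ion Proton reads with MapSplice 2.1.8 to the bovine genome, although the submitters' processing notes name the build GRCh37.p13, and deposited raw counts per gene. The counting program, its use of strand and its treatment of reads that match several genes are not given in the sources used here. The small RNA libraries were not used here.

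Size factors were medians of ratios to the geometric mean (numpy 2.4.6). The exact binomial test (scipy 1.17.1) doubles the smaller tail. It was tested on simulated data with counting error only, which says nothing of variation between animals or pools. The study's EBSeq was not used here. Fold changes of genes with a count of 0 used a prior of 0.5 counts. The alternatives were total counts, TMM and upper-quartile factors and assumed coefficients of variation (edgeR 4.0.16), a minimum of 10 counts, a prior of 5 counts, and no fold threshold.

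The members and gene lists were chosen with earlier results of these data known. Named were all 10 members, each further eicosanoid gene called, and PTGES2, PTGES3, HPGDS, TBXAS1, HPGD, PLA2G4A and AKR1B1 whatever their values. The most counted gene of each marker list was named as well, except for the eosinophil list. Other genes named (PLA2G16, ALOX12, and marker genes beyond the most counted) were chosen after their values were seen. Of the 60 further eicosanoid genes, 55 matched by symbol and 2 by an alias (PTGDR2 as GPR44, FAM213B as C16H1orf93), and 113 of 121 marker genes matched. PLA2G4C, CYSLTR1 and FPR2 were not analysed here. All 10 members are symbols in the RefSeq table of cattle genes on ARS-UCD2.0, whose positions are not printed because the counts use another build. Sequences were not used here.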

Additional observations from a re-analysis of the deposited data

How the results depend on the processing

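No paired analysis was possible because each group has 1 mRNA library, and for the same reason no library could be left out. Scaling by total counts placed the median of all genes tested at -0.23 on the log2 scale and split the calls into 539 upregulated and 2006 downregulated genes (21.2% upregulated), as against 776 and 1444 (35.0%) with size factors. With it, the log2 fold change of PTGIS turned to -0.13, the median over the 10 synthesis genes moved from -0.50, with ALOX15 at a prior of 0.5 counts, to -0.74, and of the further eicosanoid genes 2 instead of 4 were called upregulated and 9 instead of 7 downregulated. PTGS1, PTGES and LTA4H changed their side of an adjusted p of 0.05 but stayed uncalled. Leaving out genes under 10 counts, ALOX15 among them, put that median at -0.25. With an assumed biological coefficient of variation of 0.2, edgeR called 762 genes downregulated and 368 upregulated in all, of the further eicosanoid genes 2 downregulated (TBXAS1 and GGT5) and 1 upregulated (CYP4F3), and of the synthesis genes ALOX5 and ALOX5AP. With 0.4 it called 93 and 52 genes in all, and 0 of the synthesis genes and 0 of the further eicosanoid genes in either direction. Without a fold threshold 3 synthesis genes (PTGDS, LTA4H and PTGIS) were called upregulated and 4 downregulated, LTC4S besides ALOX5, ALOX5AP and PTGS2. Of the 51 further eicosanoid genes with a count, 12 were then called up and 12 down. Over all 17752 genes tested, that setting called 3535 upregulated and 3254 downregulated. Under the other scalings (TMM, upper quartile), the minimum of 10 counts and the prior of 5 counts, the same 3 synthesis genes were called downregulated. Depth limits PTGS2 and ALOX15 most, as their intervals show.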
